A study of Homo sapiens with 42 samples.

Results

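The genes described here are 41 targets and partners of ATF4, the transcription factor that raises amino acid supply when protein synthesis is stressed. They comprise ATF4, its known target genes and its dimer partners, and the rule that names them uses no value measured here, although they were chosen with earlier results of these data known. Accessible sites were assigned to them by position: a peak belonged to a gene when its summit, the base of highest signal, lay within 20000 bp of any annotated start of that gene in the human build GRCh38. Of 2689076 peaks listed in 42 libraries, 6915 met this rule. Peaks that overlapped between libraries were merged into sites, and 232 of 129344 sites seen in at least 2 libraries belonged to the 41 genes. Of these 232 sites, 168 had the ATF4-linked gene as their nearest protein-coding gene, 64 lay closer to another gene, and 3 were shared by 2 of the listed genes. By annotation 95 sites were intergenic, 87 intronic, and 47 lay in exons of untranslated regions.

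Accessible chromatin was profiled by ATAC-seq, in which a transposase cuts DNA that is not covered by nucleosomes, in MCF10A, a widely used mammary epithelial cell line that does not form tumours. All cells were first kept in medium without growth factor, which still held horse serum, hydrocortisone and cholera toxin. CTRL cells (n = 4) were taken at 0 h, and the labels list their treatment as PBS at a dose of 0. The other cells received PBS, the vehicle (n = 3 at 24 h and 3 at 48 h), EGF at 10 ng/ml (n = 4 and 4), HGF at 40 ng/ml, OSM at 10 ng/ml, IFNG at 20 ng/ml together with EGF, or TGFB at 10 ng/ml together with EGF (n = 3 and 3 each). All libraries came from 1 cell line, and the CTRL, PBS, HGF and OSM cells were harvested without added EGF. The study describes its replicates as biological, while the labels do not say which libraries shared a culture, so p-values measure the spread between these samples, part of which may be technical.

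ATF4 is translated when kinases that sense amino acid shortage, endoplasmic reticulum stress or viral RNA phosphorylate the initiation factor eIF2. It binds DNA as a dimer with C/EBP or other bZIP proteins at composite elements, and it activates amino acid transporters, enzymes of serine, glycine and asparagine synthesis, tRNA synthetases and feedback genes such as DDIT3, TRIB3 and PPP1R15A. Because much of this control acts on translation, an open ATF4 promoter by itself says little about ATF4 protein.

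The C/EBP-ATF element is written here as TGATGNAA, where N is any base, and it was searched on both strands (TTNCATCA on the other). RefSeq promoters, stretches around a start in GRCh38.p14, were at hand for 34 of the 41 genes, and PSPH, SHMT2, ALDH1L2, VEGFA, NUPR1, YARS1 and SLC7A11 were not in that table. The element was in the promoters of 13 of the 34 genes (38.2%) against 4.457% of all 27305 genes. A full cAMP response element, TGACGTCA, was in 1 of the 34 (2.249% of all genes), and TGATGNAA written backwards, AANGTAGT, in 1 of the 34 (2.553%). The 13 elements are printed because they are the shared sequence feature that the rule did not use, although several of these genes are known as ATF4 targets through this element. Each is given 5′ to 3′ in the direction of its gene, with the element in capitals and the gene strand in brackets.
AARS1, chr16:70289675-70289704 (-): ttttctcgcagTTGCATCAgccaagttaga
ASNS, chr7:97872458-97872487 (-): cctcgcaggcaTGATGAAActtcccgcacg
CARS1, chr11:3057407-3057436 (-): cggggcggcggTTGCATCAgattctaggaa
CEBPG, chr19:33374060-33374089 (+): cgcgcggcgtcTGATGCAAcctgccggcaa
CHAC1, chr15:40953251-40953280 (+): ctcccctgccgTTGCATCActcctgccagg
GARS1, chr7:30594834-30594863 (+): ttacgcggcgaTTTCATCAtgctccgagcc
JDP2, chr14:75427995-75428024 (+): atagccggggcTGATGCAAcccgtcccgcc
MARS1, chr12:57488053-57488082 (+): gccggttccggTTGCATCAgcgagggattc
NARS1, chr18:57621804-57621833 (-): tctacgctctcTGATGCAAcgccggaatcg
SLC1A4, chr2:64989381-64989410 (+): gcggctcccgtTTGCATCAtctccagccgg
SLC1A5, chr19:46784893-46784922 (-): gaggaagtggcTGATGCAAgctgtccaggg
SLC3A2, chr11:62881725-62881748 (+): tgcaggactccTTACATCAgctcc
SLC7A1, chr13:29595663-29595692 (-): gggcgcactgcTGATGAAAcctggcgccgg

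Among accessible sites, the element lay within 100 bp of the summit in 24 of the 232 sites (10.3%) against 5.51% of all sites. For sites within 1000 bp of a protein-coding start it was 15 of 85 (17.6%) against 2.1% of 19195. The cAMP response element was in 0 of the 232 sites (0.491% of all sites), and the backwards string in 2 (1.78% of all). A match is a description of the letters and not of binding. Some elements in peaks are printed below. They lie in peaks that later results turn on, near SLC7A11, which is missing from the promoter table, and near TRIB3, whose RefSeq promoters held none. Promoter peaks of SHMT2 and NUPR1, also missing from that table, held the element too and are not printed. The strand that reads TGATGNAA is in brackets.
NUPR1, chr16:28534585-28534614 (-): gcagggttttaTGATGAAAgggaaccagag
JDP2, chr14:75418070-75418099 (+): cattttaatgaTGATGAAAttgagcatgta
YARS1, chr1:32817337-32817366 (-): ccgagcccagcTGATGCAAcctggctggac
SLC7A11, chr4:138242407-138242436 (+): cagctaaatgaTGATGCAAattctccaggt
TRIB3, chr20:380881-380910 (-): cccggtccgggTGATGCAAaccggagctaa
The TRIB3 promoter peak held 3 copies of the same repeat unit, and the printed 30 bases recur exactly at chr20:380914-380943. SLC7A11 held a second copy on the other strand at chr4:138242426-138242455.

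The number of peaks per library, from 4217 to 113805, set how many of the sites could be seen, and 8 libraries had fewer than 30000. CTRL libraries listed 109226 to 113805 peaks, PBS libraries 16265 to 104875 and EGF libraries 44099 to 103106. The lists hold no read counts, so depth was unknown. Detection of a site (1 or 0) was therefore adjusted by subtracting the share of equally common sites that the same library detected, so that 0 means detection at the usual rate of that library. As a check of the cell type, a promoter peak was listed for the epithelial genes KRT5 in 31 libraries, CDH1 in 31 and ITGB4 in 37, but for KRT14 in 10 and for TP63 in 0. Immune and vascular genes were mixed, with CD3E and CDH5 at 0, PTPRC at 9, PECAM1 at 28, KDR at 24 and CD14 at 36 of 42. The fibroblast genes COL1A1, DCN and PDGFRA had one in 35, 9 and 7, so promoter peaks did not separate the cell types. A missing peak in a bulk library may mean fewer cells with the site open or less opening in each cell, and these cannot be told apart.

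Most of the 41 promoters had a peak in most libraries, although the TGFB+EGF libraries, several of them with few peaks, listed fewer. A peak within 1000 bp of a start was present in a median of 36 of 42 libraries, and 17 of the 41 genes (41.46%) had one in at least 38, against 20.71% of 20007 protein-coding genes, whose median was 31. PSPH, the last enzyme of serine synthesis, had a promoter peak in all 42. The lowest were SLC6A9, a glycine transporter (19 libraries), PPP1R15A, which directs eIF2 dephosphorylation (24), and SHMT2, the mitochondrial serine hydroxymethyltransferase (25). By role, the median was 39 for the synthesis enzymes, 38 for the tRNA synthetases with the tRNA exporter XPOT, 38 for the stress effectors, 36.5 for the transporters, and 33.5 for the transcription factors. In CTRL each of the 41 had the peak in all 4 libraries, except SLC6A9 with 3. SLC6A9 had it in 1 of 6 PBS and 5 of 8 EGF libraries and VLDLR in 3 of 6 and 7 of 8. These counts are not adjusted for peak number, and most PBS libraries listed fewer peaks than most EGF libraries.

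Taken over all 232 sites, the libraries detected about as many as their peak numbers predicted. CTRL libraries had 99.1% ± 2.95 of the predicted number (SD, n = 4). The 24 h and 48 h values were 102% ± 5.86 and 108% ± 1.46 for PBS (SD, n = 3 each) and 97.4% ± 3.14 and 102% ± 5.27 for EGF (SD, n = 4 each). The 3 PBS libraries at 48 h lay between 106% and 109%, while EGF at 48 h ran from 97.0% to 109%, so these groups overlapped. In the same order HGF had 101% ± 1.60 and 99.4% ± 4.13, OSM 92.5% ± 4.94 and 91.0% ± 11.2, and IFNG+EGF 100% ± 3.88 and 115% ± 0.358 (SD, n = 3 each). Replicate C of IFNG+EGF at 48 h had only 6742 peaks and detected 16 sites against 13.9 predicted, so the small SD there says little. Some sites, near EPRS1 and STC2, were seen in IFNG+EGF libraries only and entered the 232 through them. TGFB+EGF had 74.8% ± 21.1 and 70.5% ± 32.4, with 4 of its 6 libraries under 30000 peaks. The lowest TGFB+EGF library, with 4217 peaks, detected only 3 of the sites.

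**Figure D1:**
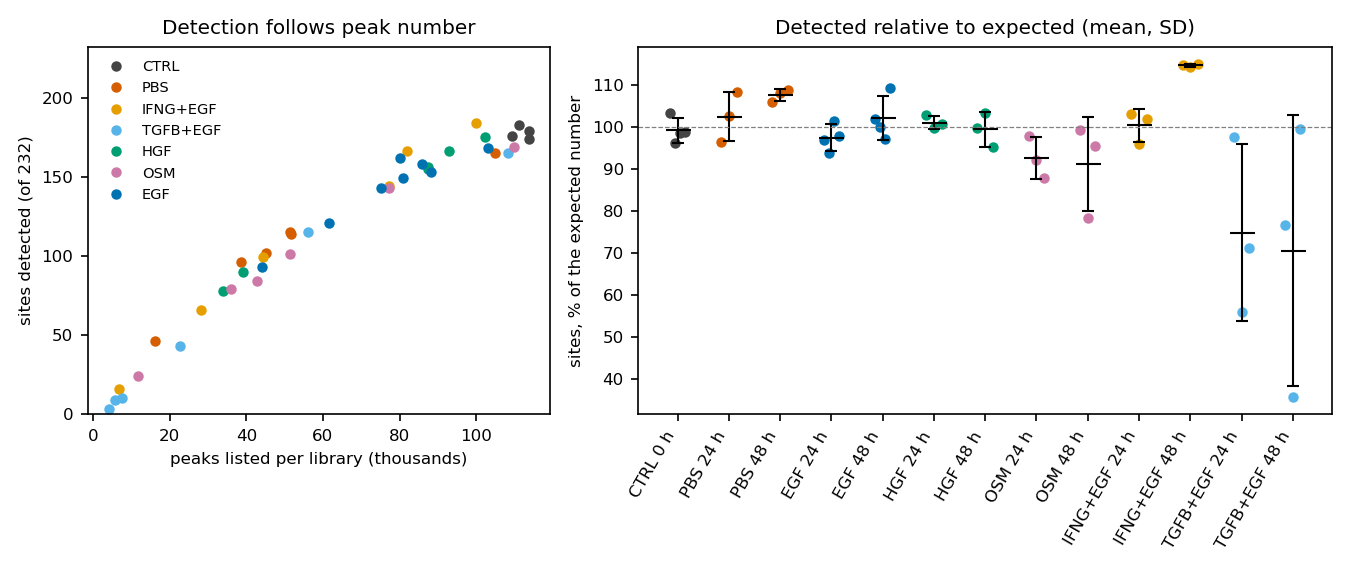
Detected sites of the 41 genes as a percentage of the number predicted from the peaks, plotted for each library by group (right, mean and SD), and the number detected of 232 against the peaks of each library (left). On the right, CTRL, PBS, EGF and HGF libraries lie near 100%, PBS at 48 h between 106% and 109%, IFNG+EGF at 48 h near 115%, and TGFB+EGF spreads down to 35.5%.

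The main comparison asked whether sites near these genes were detected more often in PBS than in EGF. CTRL cells also had no added EGF, so such a difference may be a gain in PBS or a loss in EGF. At the level of whole genes, where a gene's value is the mean adjusted detection of its sites, 24 of the 41 genes were above 0 in PBS minus EGF and 17 below, with a median of 0.00885 against 0.00711 for all 18686 genes tested. In limma at an adjusted p below 0.05, 0 of the 41 were higher in PBS (0.91% of all genes) and 1 was lower (0.578% of all genes), ALDH1L2. At an unadjusted p below 0.05 there were 10 of the 41, 9 of them higher in PBS, which is 24.4% of the members against 14.9% of all genes. For single sites the order was the other way, with 10.3% of the sites of the 41 genes below 0.05 against 13.3% of all sites. Against CTRL the median was 0.0163, with 22 genes above 0 and 19 below. With detection not adjusted for peak number the medians were -0.139 from EGF and -0.292 from CTRL, so the signs given here hold relative to the peaks each library listed. None was called higher in PBS than in CTRL (0.0268% of all genes) or lower (0.0482%), and 3 had an unadjusted p below 0.05, which is 7.3% of the members against 11.3% of all genes.

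**Figure D2:**
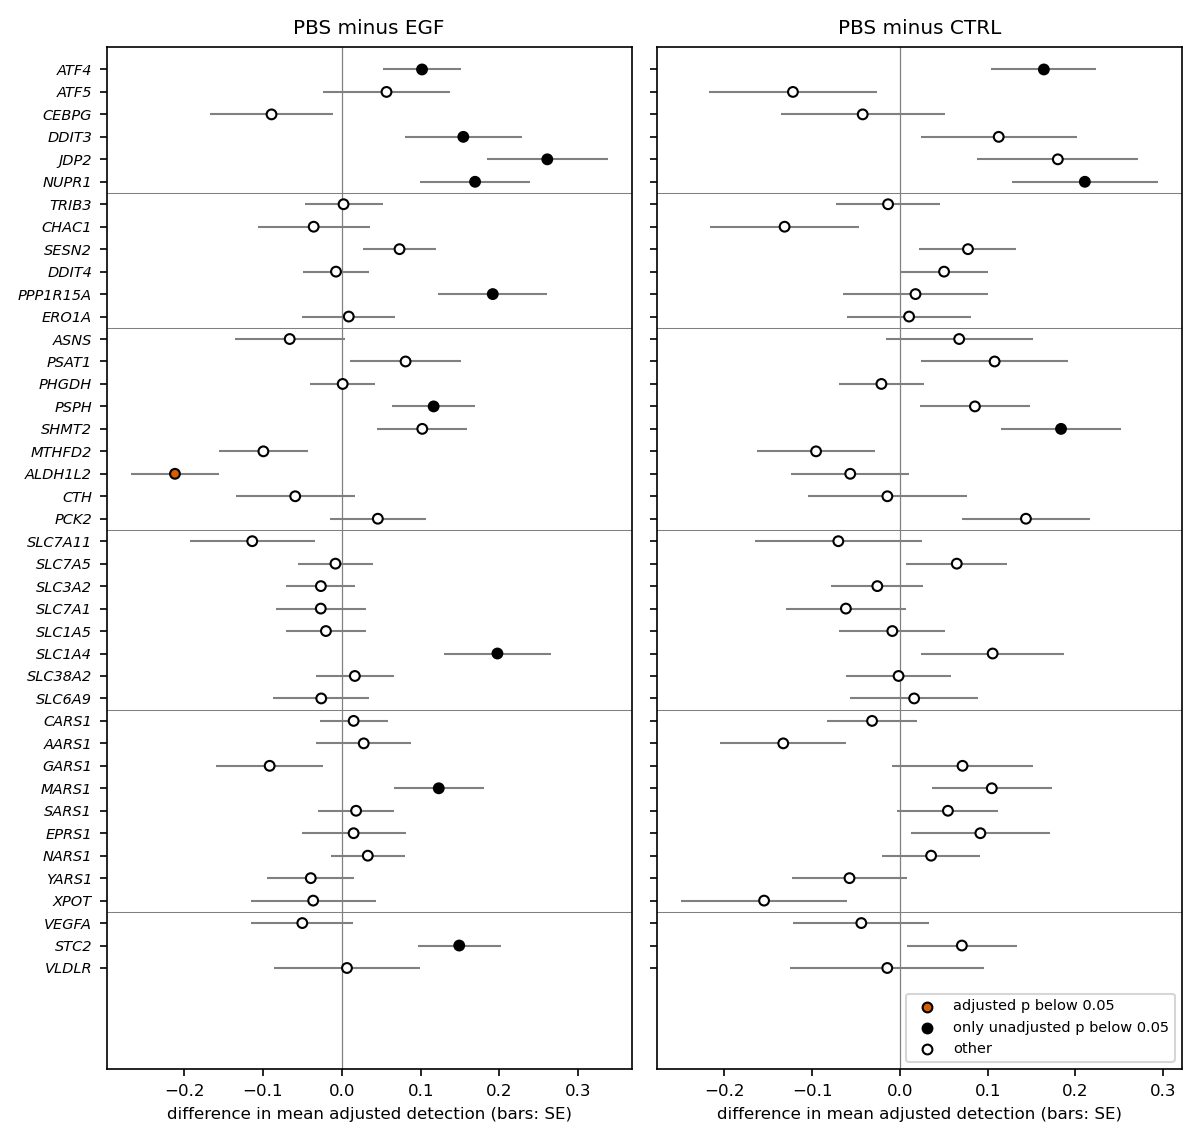
Difference in mean adjusted detection of the sites of each gene, PBS minus EGF (left) and PBS minus CTRL (right), both times together, with bars for the standard error. Genes are ordered by role, and filled black points have an unadjusted p below 0.05 only. ALDH1L2 is the 1 gene past an adjusted p of 0.05 (-0.212), and the transcription factors JDP2, NUPR1, DDIT3 and ATF4 lie to the right of 0 in both panels.

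The transcription factors had the highest median of the role groups, 0.128 in PBS minus EGF, with 5 of 6 above 0, 4 of 6 at an unadjusted p below 0.05 and 0 called. JDP2, a bZIP repressor that dimerises with ATF and Jun proteins, differed by 0.261 ± 0.0767 (SE, adjusted p 0.0721 in limma). NUPR1, a small stress-induced chromatin protein, differed by 0.169 ± 0.0699 (adjusted p 0.231), and DDIT3, which encodes the C/EBP-family protein CHOP, by 0.154 ± 0.0744 (adjusted p 0.326). ATF4 itself differed by 0.102 ± 0.0501 from EGF (adjusted p 0.335) and by 0.164 ± 0.0598 from CTRL (adjusted p 0.250). Its PBS libraries had values from -0.004 to 0.062 at 24 h and from 0.122 to 0.232 at 48 h, EGF libraries -0.125 to 0.127, and CTRL libraries -0.119 to 0.0396. PBS at 48 h was thus above CTRL in all 3 libraries and overlapped EGF at 48 h. CEBPG, a short C/EBP partner of ATF4, was the 1 factor below 0, at -0.0891 (adjusted p 0.657).

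JDP2 had the clearest single site. The site at chr14:75422165-75422509, intergenic and 5357 bp before a JDP2 start, was detected in 4 of 4 CTRL, 3 of 3 PBS libraries at 24 h, 2 of 3 at 48 h, 3 of 4 EGF libraries at 24 h and 0 of 4 at 48 h. The PBS library without it had the fewest peaks of its group, 16265, so the site was absent from EGF libraries at 48 h with 75217 to 88211 peaks and present in PBS libraries with fewer. Adjusted detection was higher in PBS than in EGF by 0.830 ± 0.135 (SE, adjusted p 0.00168 in limma). At 48 h alone the difference was 1.197 ± 0.191 (adjusted p 0.00341), and at 24 h it was 0.463 (adjusted p 0.379). PBS did not differ detectably from CTRL there (0.288, adjusted p 0.494). EGF minus CTRL was -0.542 ± 0.153 (SE, adjusted p 0.0706 in limma, not called), so EGF lay farther from CTRL than PBS did. The difference between the 48 h and the 24 h effect of PBS against EGF was 0.735 (adjusted p 0.579). The summit region, chr14:75422259-75422459 on the plus strand, is shown because the site was absent from every EGF library at 48 h. It holds no TGATGNAA.
JDP2 site at -5357: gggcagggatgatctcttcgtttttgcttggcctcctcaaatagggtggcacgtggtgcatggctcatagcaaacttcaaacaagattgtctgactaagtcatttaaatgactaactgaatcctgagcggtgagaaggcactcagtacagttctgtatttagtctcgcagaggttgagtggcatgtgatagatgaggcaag

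NUPR1 had the other called site. It lies at chr16:28534514-28535008, 4266 bp past a NUPR1 start in an annotated exon (untranslated), and carries the TGATGAAA printed above. It was detected in 6 of 6 PBS libraries, 0 of 4 EGF libraries at 24 h, 3 of 4 at 48 h, and 2 of 4 CTRL libraries. The difference from EGF was 1.04 ± 0.206 (SE, adjusted p 0.00861 in limma) and from CTRL 1.11 ± 0.246 (adjusted p 0.0178, above the 0.01 used for sites). PBS libraries thus all had the site, with as few as 16265 peaks, and EGF and CTRL libraries had it in part. HGF, OSM and IFNG+EGF libraries also had it in part, and no TGFB+EGF library had it. IFNG+EGF minus EGF was 0.622 (adjusted p 0.0899), HGF minus PBS -0.643 (adjusted p 0.361) and OSM minus PBS -0.386 (adjusted p 0.502), none called in limma. The NUPR1 promoter itself was open in 5 of 6 PBS, 8 of 8 EGF and 4 of 4 CTRL libraries.

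Of the 232 sites, these 2 were called higher in PBS than in EGF (0.195% of all sites) and 0 were called lower (0.0325%). Against CTRL, 0 of the 232 were called in limma at an adjusted p below 0.01 (0.106% higher and 0.278% lower of all sites), and 18 had an unadjusted p below 0.05, against 15518 of all 129344 sites. With only the CTRL, PBS and EGF libraries in the model the adjusted p was 0.0388 for JDP2 and 0.0516 for NUPR1, and neither was called. The JDP2 call was lost without PBS at 48 h replicate B (0.794, adjusted p 0.0114). The NUPR1 call was lost without any 1 of 11 libraries (4 PBS libraries, namely B and C of 24 h with A and B of 48 h, and 7 EGF libraries, namely all of 48 h and all of 24 h but B), with differences of 0.907 to 1.15 over all such runs and an adjusted p of at most 0.0314.

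**Figure D3:**
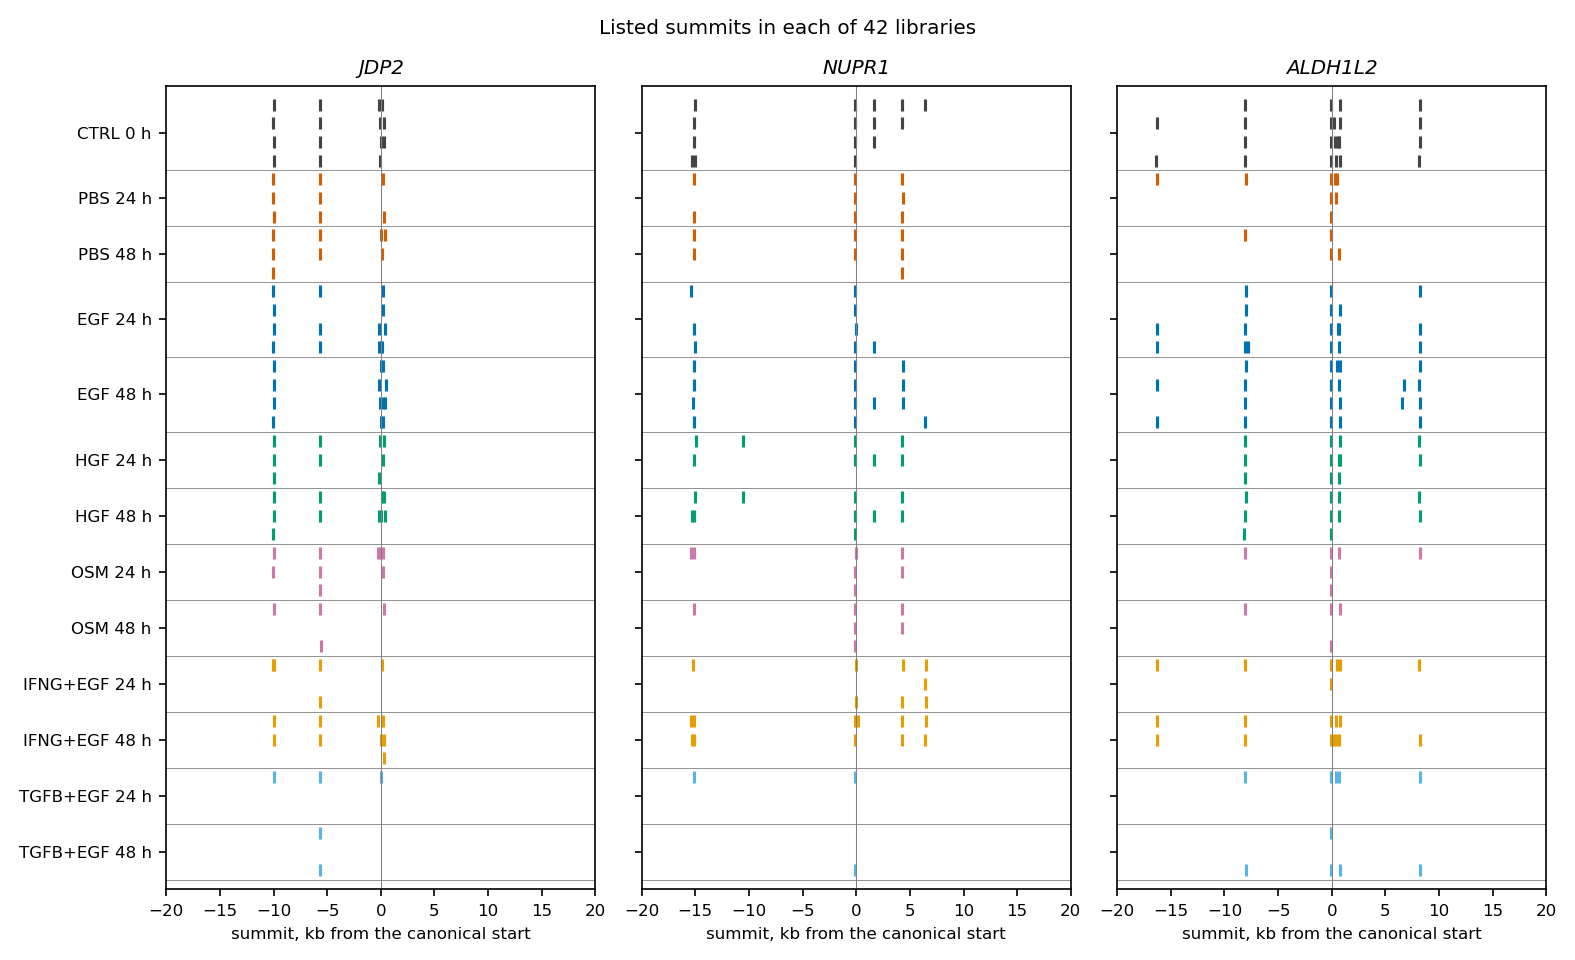
Position of every listed summit around JDP2, NUPR1 and ALDH1L2, as distance in kb from the canonical start, with 1 row of ticks for each of 42 libraries, by group. For JDP2 the column between -5 and -10 kb, the site 5357 bp before its nearest start, is filled in all 4 CTRL libraries and empty in all 4 EGF libraries at 48 h. For NUPR1 the column near +4 kb is filled in all 6 PBS libraries, and for ALDH1L2 the column near +8 kb is empty in them.

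Among the enzymes of amino acid and one-carbon synthesis, ALDH1L2, the mitochondrial formyltetrahydrofolate dehydrogenase, was lower in PBS than in EGF by -0.212 ± 0.0564 (SE, adjusted p 0.0452 in limma). Its PBS libraries ranged from -0.231 to -0.0165, EGF libraries from -0.0196 to 0.188 and CTRL libraries from -0.152 to 0.115, so PBS and EGF overlapped in 1 library each. An intronic site 8184 bp past a start was in 0 of 6 PBS, 7 of 8 EGF and 4 of 4 CTRL libraries, and one 5570 bp past a start, in an exon (untranslated), was in 0 of 6, 5 of 8 and 4 of 4. An intronic site 8055 bp before a start was in 2 of 6 PBS, 8 of 8 EGF and 4 of 4 CTRL libraries. A promoter site 67 bp before a start was in 5 of 6, 8 of 8 and 4 of 4, and another, 82 bp before a start, was in every PBS, EGF and CTRL library. These counts are not adjusted for peak number. None of these sites was called on its own, and the gene did not differ detectably from CTRL (-0.0566, adjusted p 0.815). EGF minus CTRL was 0.155 (adjusted p 0.382 in limma). The ALDH1L2 call was lost without any 1 of 13 of the 18 libraries (all but CTRL B and D, PBS at 48 h C, EGF at 24 h D and EGF at 48 h C), with an adjusted p of up to 0.148. Without the libraries of fewer than 30000 peaks its adjusted p was 0.104.

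The other 8 enzymes did not pass. PSPH differed from EGF by 0.116 (adjusted p 0.287) and SHMT2 from CTRL by 0.184 (adjusted p 0.262). MTHFD2, which makes mitochondrial one-carbon units, differed from EGF by -0.0994 (adjusted p 0.423). ASNS, asparagine synthetase and a textbook ATF4 target, differed by -0.0661 from EGF (adjusted p 0.733) and by 0.0676 from CTRL (adjusted p 0.821). Its promoter peak, which holds the element shown above, was in 6 of 6 PBS, 8 of 8 EGF and 4 of 4 CTRL libraries, so detection could not separate the groups there.

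The stress effectors stayed near 0, with a median of 0.00554 and 0 of 6 called. PPP1R15A had the largest difference from EGF, 0.191 ± 0.0694 (adjusted p 0.158), and its promoter site was in 5 of 6 PBS, 6 of 8 EGF and 4 of 4 CTRL libraries (site difference 0.488, adjusted p 0.0353). TRIB3, a pseudokinase that restrains ATF4, differed by 0.00223 from EGF, CHAC1, which degrades glutathione, by -0.0356, and SESN2, a leucine sensor that restrains mTORC1, by 0.0732 (adjusted p 0.990, 0.890 and 0.489). The promoter peaks of CHAC1 and SESN2 were in all 6 PBS, all 8 EGF and all 4 CTRL libraries.

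Among the transporters 6 of 8 were below 0 in PBS minus EGF and 0 were called. SLC1A4, a carrier of alanine, serine and cysteine, was the highest at 0.197 ± 0.0684 (adjusted p 0.133), with values of 0.153 to 0.335 in PBS at 24 h against -0.0115 to 0.00713 at 48 h. SLC7A11, the cystine carrier, was at -0.114 (adjusted p 0.547). It had its promoter peak in every PBS, EGF and CTRL library, while a site 17636 bp before its start was in 1 of 6 PBS, 5 of 8 EGF and 4 of 4 CTRL libraries. Of the 9 genes of tRNA charging and export 6 were above 0 and 0 were called. MARS1 was highest at 0.123 (adjusted p 0.302) and GARS1 lowest at -0.0915 (adjusted p 0.572), and 3 of the 7 MARS1 sites are at the same time the 3 sites of DDIT3. Of the secreted and membrane proteins, STC2, a secreted glycoprotein, differed by 0.149 (adjusted p 0.143), VEGFA, the angiogenic factor, by -0.0501 (adjusted p 0.791), and VLDLR, a lipoprotein receptor, by 0.00657 (adjusted p 0.990).

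Other genes of the pathway were read in the same way. Of 18 genes of the stress kinases and the unfolded protein response, 0 passed against EGF or CTRL in either direction, and limma gave 1 unadjusted p below 0.05 in each comparison (EIF2AK4, the amino acid sensing kinase, 0.0978 against EGF, and ATF6, an endoplasmic reticulum stress factor, 0.266 against CTRL, the latter with an adjusted p of 0.195). Of 12 other cytosolic tRNA synthetases 0 passed, again with 1 at an unadjusted p below 0.05 in each comparison.

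**Figure D4:**
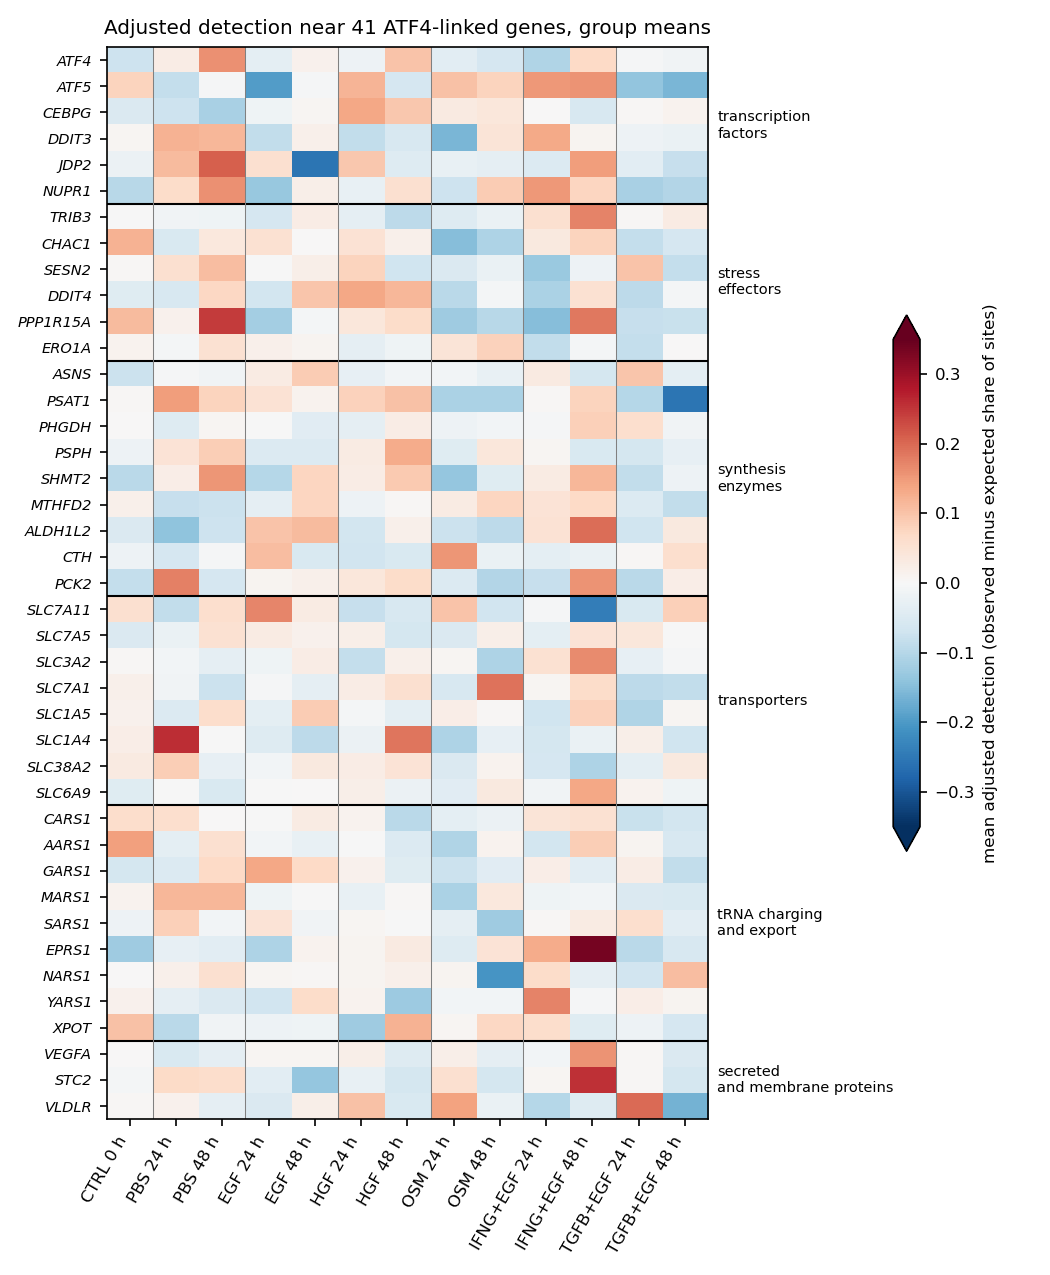
Mean adjusted detection of the sites of each of the 41 genes (rows, by role) in each of the 13 groups (columns), in colour from blue (fewer sites than the library's peak number predicts) to red (more). JDP2 has the lowest value of EGF at 48 h (-0.256) and is at 0.210 in PBS at 48 h, and EPRS1 and STC2 are high in IFNG+EGF at 48 h.

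Detection cannot show a change at a promoter that every library detects, so peak height was compared next, as the fold enrichment of the summit over its local background. Heights were compared at 10808 sites found in all 18 CTRL, PBS and EGF libraries, 44 of them near the listed genes and 34 of those within 1000 bp of a protein-coding start. The heights were brought to a common distribution over libraries. With both times together, 1 of the 44 was higher in PBS than in EGF (4.6% of all sites) and 1 lower (6.51%). Against CTRL 5 were higher (5.48% of all) and 1 lower (6.25%). The median log2 difference was 0.0640 from EGF (all sites 0.0127) and 0.0724 from CTRL (all sites 0.0117).

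At 48 h the ATF4 promoter peak was higher in PBS than in every CTRL and EGF library and every PBS library at 24 h. The site, chr22:39519400-39520649, has its summit 403 bp before an ATF4 start, in an intron of a longer transcript. Its height was 8.40, 10.2 and 8.53 in the 3 PBS libraries at 48 h. It was 6.10, 3.91 and 4.52 in PBS at 24 h, 3.92 to 5.35 in the 4 CTRL libraries, 4.16 to 6.78 in EGF at 24 h and 4.52 to 6.16 in EGF at 48 h. PBS at 48 h overlapped none of these groups, and PBS at 24 h overlapped CTRL and EGF. The height at 48 h was 1.70-fold that of EGF (log2 difference 0.77 ± 0.175 SE, adjusted p 0.00622 in limma) and 1.86-fold that of CTRL (0.90 ± 0.175, adjusted p 0.00131). With both times together neither difference passed (0.32, adjusted p 0.0958, and 0.44, adjusted p 0.0529). The difference between the 48 h and the 24 h effect was 0.91 ± 0.248 (unadjusted p 0.00115, adjusted p 0.117), so a change with time was not called. The 48 h comparisons of heights were added after the data had been seen. Both calls held without any 1 library, with adjusted p of at most 0.0355 and 0.0100. The part of the summit region outside annotated exons, chr22:39520059-39520177 on the plus strand, is shown because it carries this peak. It holds no TGATGNAA.
ATF4 promoter peak: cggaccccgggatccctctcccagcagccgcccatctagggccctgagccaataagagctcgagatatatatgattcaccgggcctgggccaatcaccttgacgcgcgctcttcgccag

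Promoter heights as a whole were higher in PBS relative to other sites, and this bears on all the promoter results here. Because heights were brought to a common distribution, a rise at promoters cannot be told from a fall at sites farther away. Over the 5759 sites within 1000 bp of a start, the median log2 difference of PBS at 48 h was 0.12 from CTRL and 0.10 from EGF, and 12.4% and 6.84% of them were called higher. Over the 5049 sites farther away it was -0.13 from CTRL and -0.10 from EGF. At the ATF4 promoter, with the medians near and far from starts made equal, the 48 h differences were still called, at 0.68 from EGF (adjusted p 0.0206) and 0.79 from CTRL (adjusted p 0.00502). The part of this shift in the results at the other promoters was not tested beyond this setting.

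At 48 h a second site near ATF4, at -17412 bp from its start and nearest to MIEF1, was also higher than in CTRL (1.46-fold, 0.55 ± 0.163, adjusted p 0.0197). Its height was 14.0, 16.2 and 14.2 in PBS at 48 h against 8.75 to 11.6 in CTRL and 9.29 to 13.02 in EGF at 48 h. That call was lost without CTRL A, CTRL B or PBS at 48 h B (adjusted p 0.0593, 0.0630 and 0.0785), and with the near and far medians made equal (adjusted p 0.0672).

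DDIT4, an inhibitor of mTORC1, was higher than in CTRL at its promoter, 81 bp before a start (chr10:72272634-72274156). Heights were 5.04 to 6.02 in CTRL, 5.71, 9.17 and 9.24 in PBS at 24 h and 6.57, 10.1 and 13.5 at 48 h. EGF libraries were also above CTRL, at 7.66 to 11.98 at 24 h and 6.24 to 8.26 at 48 h, so PBS and EGF overlapped. Over both times PBS was 1.57-fold CTRL (log2 difference 0.66 ± 0.171 SE, adjusted p 0.0154 in limma), with EGF minus CTRL at 0.58 (adjusted p 0.312) and PBS minus EGF at 0.07 (adjusted p 0.780). At 48 h PBS was 1.74-fold CTRL (0.80 ± 0.203, adjusted p 0.00779), and this held without any 1 library. The call over both times was lost without CTRL A (adjusted p 0.0525) or CTRL C (0.0530). A distal DDIT4 site, 13196 bp before the start, went the other way at 48 h and was lower in PBS than in EGF (-0.44 ± 0.140, adjusted p 0.0388), with heights of 5.29, 6.84 and 6.76 against 7.41 to 10.2. That call was lost without PBS at 48 h A or C or EGF at 48 h B or C (adjusted p 0.0939 to 0.219) and with the near and far medians made equal (adjusted p 0.146).

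JDP2 was again higher, at a second site. The intergenic site at chr14:75417641-75418199, 9707 bp before a start, had heights of 10.8, 13.2 and 10.2 in PBS at 24 h, 5.61 to 7.28 in EGF at 24 h, and 7.48 to 9.93 in CTRL. At 48 h PBS had 9.92, 10.1 and 11.7 and EGF 10.1 to 11.6. PBS and EGF were therefore apart at 24 h and overlapped at 48 h. The 24 h difference was 1.73-fold (log2 0.79 ± 0.139 SE, adjusted p 0.00807 in limma), the 48 h difference was -0.01 (adjusted p 0.963), and their difference was -0.80 (adjusted p 0.0958). Over both times it was 0.39 ± 0.0980 against EGF (adjusted p 0.0118), called without any 1 library, and 0.37 ± 0.117 against CTRL (adjusted p 0.0422). The call against CTRL was lost without CTRL B, C or D, PBS at 24 h B, PBS at 48 h B or EGF at 48 h B (adjusted p 0.0500 to 0.152). The 2 JDP2 sites were thus called against EGF at different times, the one at -9707 in height at 24 h and the one at -5357 in detection at 48 h, although neither change with time was itself called. The summit region at -9707, chr14:75417909-75418109 on the plus strand, holds 1 TGATGAAA in capitals.
JDP2 site at -9707: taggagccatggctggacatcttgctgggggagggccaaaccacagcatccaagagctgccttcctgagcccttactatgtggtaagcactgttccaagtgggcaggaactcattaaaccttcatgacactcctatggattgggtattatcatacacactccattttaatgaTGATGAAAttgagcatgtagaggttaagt

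VLDLR was lower in PBS. The site at chr9:2655261-2655932, 3725 bp past an alternative start in an annotated exon (untranslated), had heights of 11.1, 9.16 and 6.63 in PBS at 24 h and 9.86, 5.49 and 6.72 at 48 h. CTRL libraries had 13.4 to 15.5, above every PBS library, and EGF libraries 11.1 to 15.1 at 24 h and 9.17 to 12.9 at 48 h, which overlapped PBS. PBS was 0.535-fold CTRL (log2 difference -0.90 ± 0.154 SE, adjusted p 0.00116 in limma) and 0.667-fold EGF (-0.58 ± 0.129, adjusted p 0.00485). Both calls held without any 1 library, with adjusted p of at most 0.00720 and 0.0223. At 48 h alone the difference from EGF was -0.56 (adjusted p 0.0453), and this call was lost without any 1 of 10 libraries (each CTRL library, PBS at 48 h B or C, EGF at 24 h D, or EGF at 48 h A, C or D), with an adjusted p of up to 0.240. It is 1 of the 10 sites of the listed genes that lie farther than 1000 bp from a protein-coding start, where 11.6% of all sites were lower than in CTRL and 12% lower than in EGF.

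YARS1, the tyrosyl-tRNA synthetase, shares its promoter with S100PBP, and its peak 64 bp before a start holds the TGATGCAA shown above. Heights were 5.76 to 7.86 in CTRL, 9.06, 13.5 and 10.6 in PBS at 48 h and 6.45 to 8.64 in EGF at 48 h, while EGF at 24 h reached 11.5. PBS at 48 h lay above CTRL and EGF at 48 h, by 1.60-fold (0.68 ± 0.181, adjusted p 0.0106) and 1.51-fold (0.60 ± 0.181, adjusted p 0.0320). Over both times it was 1.47-fold CTRL (adjusted p 0.0192). The calls were lost without CTRL A, CTRL C or PBS at 24 h C for both times against CTRL (adjusted p 0.0804, 0.0681 and 0.0557), without PBS at 48 h B for 48 h against CTRL (0.0727), and without PBS at 48 h B or EGF at 48 h A, C or D against EGF (0.0527 to 0.161). With the near and far medians made equal, the 48 h call against EGF was also lost (adjusted p 0.0684).

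Near PCK2, the mitochondrial phosphoenolpyruvate carboxykinase, the called site lies 12049 bp past a start and is nearest to DCAF11. Heights were 5.74 to 7.30 in CTRL and 6.46 to 10.4 over the 6 PBS libraries, 1.38-fold over both times (adjusted p 0.0240), and 1.44-fold at 48 h (adjusted p 0.0210). Near ERO1A, an oxidase of protein folding, the called site lies at -7536 bp from a start and is nearest to PSMC6, with 5.53 to 7.22 in CTRL and 5.96 to 11.3 in PBS, 1.37-fold over both times (adjusted p 0.0459) and 1.46-fold at 48 h (adjusted p 0.0312). The PCK2 call over both times was lost without CTRL A, C or D or PBS at 24 h C (adjusted p 0.0602 to 0.0846), that at 48 h without CTRL A or C or PBS at 48 h B (adjusted p 0.0600 to 0.0700), and both with the near and far medians made equal (adjusted p 0.0574 and 0.0690). The ERO1A call over both times was lost without any CTRL library, PBS at 24 h B, PBS at 48 h B or EGF at 48 h A, B or D (adjusted p up to 0.148), and that at 48 h without CTRL A, B or C or PBS at 48 h B (adjusted p up to 0.129). A site 1966 bp past a start of MTHFD2, named after its value was seen, was lower at 48 h than in CTRL (-0.44 ± 0.149, adjusted p 0.0381) and lost that call without any PBS library at 48 h or without CTRL A, B or C (adjusted p 0.0539 to 0.204).

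**Figure D5:**
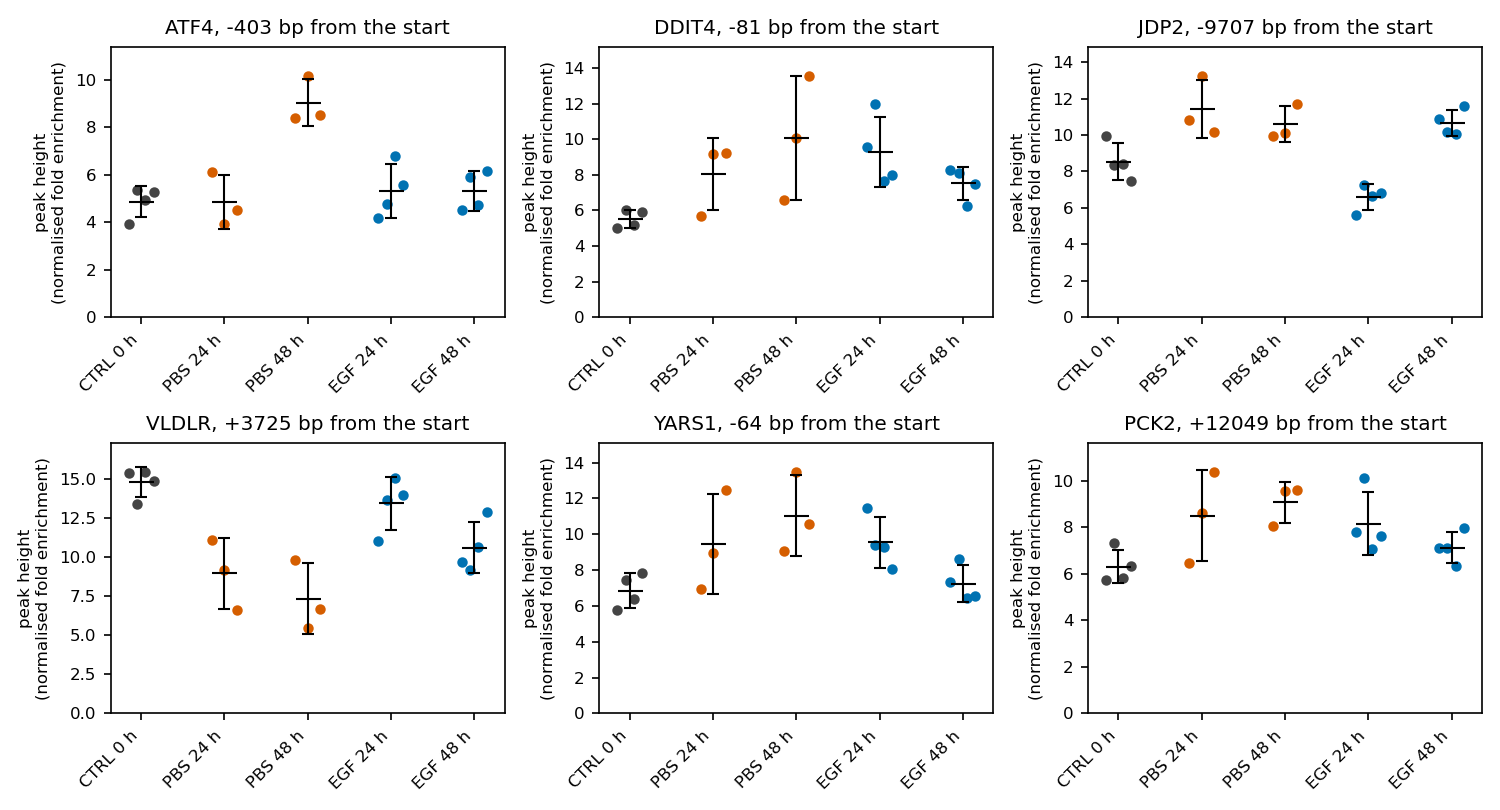
Peak height (fold enrichment of the summit over local background, on a common distribution) at 6 sites, for each library of CTRL, PBS and EGF, with group means and SD. The ATF4 promoter stands at 8.40 to 10.2 in PBS at 48 h against 3.91 to 6.78 elsewhere, and the VLDLR site lies at 5.49 to 11.1 in PBS against 13.4 to 15.5 in CTRL.

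By time, 1 of the 44 sites was higher in PBS than in EGF at 24 h (0.509% of all sites), the JDP2 site at -9707, and 0 lower (0.352%). Against CTRL at 24 h it was 0 higher (0.102%) and 0 lower (0.278%), with 9 of 44 at an unadjusted p below 0.05, against 1652 of all 10808 sites. At 48 h it was 2 higher (4.89%) and 2 lower (6.81%) than EGF, and 6 higher (9.03%) and 2 lower (10.2%) than CTRL. Without the libraries of fewer than 30000 peaks, which removes PBS at 48 h replicate C from these groups, 17 of 71 shared sites were called against CTRL at 48 h, 14 of them higher, which is 23.9% against 20.8% of all 19439 sites. At gene level by time, 0 of the 41 genes were called for PBS against EGF at 24 h (0.0214% of all genes) or 48 h (0.235%), against CTRL at 24 h (0.0161%) or 48 h (0.0589%), for the difference between the times (0.00535%), or for EGF against CTRL (0.326%). Unadjusted, 1 to 5 of the 41 had a p below 0.05 in each of these, or 2.4% to 12.2% of them against 6.0% to 10.7% of all genes.

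The last comparison in PBS and EGF cells asked whether sites with the element, near any gene, were detected more often than a library's rates predict. The deviation from that prediction over all 7126 sites with TGATGNAA was 3.03% ± 5.27 in PBS (SD, n = 6), -4.13% ± 1.64 in EGF (SD, n = 8) and -2.53% ± 2.29 in CTRL (SD, n = 4). At 24 h the PBS libraries had 3.04%, 7.95% and -0.815%, and at 48 h 5.69%, 7.73% and -5.39%, the last in the library of 16265 peaks. In PBS 5 of 6 libraries were above every EGF library, whose values were -6.32% to -1.35%. PBS minus EGF was 7.16 points (exact permutation p 0.00653, adjusted p 0.0392 over 6 tests, two-sided), and PBS minus CTRL was 5.56 points (exact permutation p 0.100, adjusted p 0.149). For the cAMP response element these were 4.27 (exact permutation p 0.0269, adjusted p 0.0808) and 4.47 points (p 0.124), and for the backwards string 4.44 (p 0.268) and 8.06 points (p 0.0619). Both other strings thus also had positive differences. Deviations moved with peak number: in the 8 libraries under 30000 peaks the element's deviation was between -58.9% and -0.751%, and that of the backwards string between 10.3% and 37.1%. The part of peak number in the result was not tested beyond leaving those libraries out, which gave 7.79 points for PBS minus CTRL (exact permutation p 0.0143, not adjusted). PBS minus EGF was 6.88 to 9.35 points over 4 alternative settings, that one among them. These settings were run for TGATGNAA only and not for the other strings. Among the other treatments the element's deviation was 3.91% to 5.87% in OSM at 24 h, -0.751% to 13.5% in OSM at 48 h, and 8.95% and 11.6% in the IFNG+EGF libraries at 48 h of 99869 and 81891 peaks. Replicate C of IFNG+EGF at 48 h had -58.9%. Over both times HGF had -11.7% to 2.50% and TGFB+EGF -28.0% to -1.92%, and IFNG+EGF at 24 h had -5.98% to -1.02%.

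Ligands were compared with the medium they were added to, PBS for HGF and OSM and EGF for IFNG+EGF and TGFB+EGF. For IFNG+EGF, 2 of the 41 genes were higher and 0 lower (2.49% of all genes called in either direction). EPRS1, the glutamyl-prolyl-tRNA synthetase that also takes part in an interferon-induced translation block, differed by 0.281 ± 0.0659 (SE, adjusted p 0.0147 in limma). That value rests largely on an intronic site at chr1:220015616-220016213, seen in 3 IFNG+EGF libraries and in no other of the 42. Since that site entered the test only through IFNG+EGF libraries, the EPRS1 value is a description, and with sites of at least 5 libraries it was 0.190 (adjusted p 0.370). STC2 differed by 0.217 ± 0.0525 (adjusted p 0.0184), with 0.146 to 0.431 in IFNG+EGF at 48 h and -0.174 to -0.0911 in EGF at 48 h. A STC2 site 9673 bp past a start was seen in 2 IFNG+EGF libraries at 48 h and in no other of the 42. That site also entered the test only through IFNG+EGF libraries, so the STC2 value is a description as well. At 24 h IFNG+EGF had -0.0276 to 0.0400 and overlapped EGF at 24 h, which had -0.162 to 0.0762. Counting only the 20000 highest peaks of each library, EPRS1 had no difference (0) and STC2 was at -0.227, neither called. Both calls were also lost with unadjusted detection (0.167 and 0.153, adjusted p 0.442 and 0.422), in a 5 kb window (0.104 and 0.389, adjusted p 0.587 and 0.0559) and in a 50 kb window (0.0344 and 0.122, adjusted p 0.780 and 0.107). The EPRS1 call was lost with starts of basic transcripts (0.104, adjusted p 0.542), and the STC2 call with peaks of a −log10 q of at least 5 (0.0912, adjusted p 0.655). At site level 2 of the 232 were called higher (1.36% of all sites called in either direction). NUPR1 had a site 6431 bp past a start in 5 of 6 IFNG+EGF and 1 of 8 EGF libraries (0.760 ± 0.155, adjusted p 0.00304). The JDP2 site at -5357 was in 4 of 6 against 3 of 8 (0.615 ± 0.135, adjusted p 0.00610), and it was in 3 of 6 TGFB+EGF libraries (0.719, adjusted p 0.0460, not called).

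OSM against PBS gave 0 called genes of the 41 in limma (1.91% of all) and 0 called sites (0.497%), but 13 genes had an unadjusted p below 0.05 (31.7% against 15.9% of all genes), 12 of them lower with OSM. The lowest adjusted p was 0.0798, for PPP1R15A at -0.239 ± 0.0742, and ATF4 was at -0.140 (adjusted p 0.170). For single sites, 14.2% of those of the 41 genes had an unadjusted p below 0.05, against 13.3% of all sites. The OSM differences share the PBS libraries with the comparison above. HGF against PBS had 0 called genes (0% of all) and 0 sites (0.000773%), with 4 genes at an unadjusted p below 0.05 (9.8% against 7.4% of all genes). TGFB+EGF against EGF had 0 genes (0.00535%) and 0 sites (0.00232%), with 2 genes at an unadjusted p below 0.05 (4.9% against 9.2% of all genes), and 4 of its 6 libraries had too few peaks to show more than a small part of the sites.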

How the data were processed

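Chromatin accessibility was profiled by Omni-ATAC in 42 MCF10A libraries. The submitters' processing notes name Trimmomatic 0.36.5, Bowtie2 2.3.4.1, Picard, MACS2 2.1.1.20160309.5, deepTools 3.1.2 and hg38. The study left out libraries with a low share of reads in peaks, and since the labels do not say which, some of those used here may be among them. The authors called peaks in each library separately, without a control library. Per the file headers and the values, each deposited peak list gives a score, the fold enrichment of the summit over its local background (a ratio), and the −log10 of the p-value and of the q-value. Without read counts, depth and the precision it gives were unknown, and the peak number of a library (4217 to 113805) limited what it could detect.

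The 41 genes, the pathway lists and the tests were chosen with earlier results of these data known. Peaks on primary chromosomes were merged into sites (at least 1 bp of overlap, at least 2 libraries) and assigned with GENCODE starts. Adjusted detection and gene means were tested in limma 3.58.1 (R 4.3.3) in 1 model of 13 groups with 29 residual degrees of freedom, and sites were called at an adjusted p below 0.01 and a difference of 0.5 or more, genes and heights below 0.05 (Benjamini-Hochberg). Heights were log2 of the fold enrichment, quantile-normalised, with 13 residual degrees of freedom. Scripts (Python 3.11.15) were tested on simulated data. Named genes were ATF4, DDIT3, ASNS, TRIB3, CHAC1 and SESN2, every gene called at gene, site or height level in PBS against EGF or CTRL, and the 2 of each role with the largest gene-level difference from EGF. All other genes given with values were named after these were seen. Heights by time, and alternatives that equalise sites near and far from starts, were likewise added after the data had been seen. Replicate letters were checked for pairing. Alternatives changed the detection measure, peak threshold, window, model (sequencing lane or replicate letter as a term, array weights), normalisation and libraries used.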

Additional observations from a re-analysis of the deposited data

Results flagged for a closer look

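In groups of 4 libraries, 17 of 102 tested had 1 library far from the other 3. The rate taken for chance was about 1 in 20 groups (5.1 here). A gene's value is a mean over few sites, so 1 site in 1 library can set a flag and that rate need not hold. Near JDP2, for example, a site 18398 bp past a start was in CTRL A and in no other CTRL library. All but 1 are mean adjusted detection near a gene, and the causes were not tested.

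Of the CTRL libraries, replicate A was apart for 3 genes. Near JDP2 it had 0.172 against -0.0852 to -0.0806 in the others, near DDIT4 0.0724 against -0.0840 to -0.0746, and near GARS1 -0.239 against -0.00300 to 0.00347. Replicate B was apart for 4 genes, with -0.0374 near CHAC1 (others 0.166 to 0.184), -0.104 near MARS1 (0.0458 to 0.0526), -0.239 near PCK2 (-0.0400 to -0.0275) and -0.147 near PPP1R15A (0.186 to 0.209). Replicate C had 0.0396 near ATF4 (others -0.119 to -0.0952), -0.135 near ERO1A (0.0544 to 0.0685) and -0.0658 near TRIB3 (0.0164 to 0.0289). Replicate D had -0.170 near SLC1A4 (0.0759 to 0.0941).

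Of the EGF libraries at 48 h, all such values came from replicate C. It had 0.145 near ERO1A (others -0.0432 to -0.0218), -0.163 near GARS1 (0.123 to 0.180), -0.167 near PCK2 (0.0685 to 0.0990) and 0.174 near VEGFA (-0.0595 to -0.0304), and its peak height at the MTHFD2 site 1966 bp past a start was 16.2 against 14.0 to 14.2. At 24 h, EGF replicate B had -0.278 near VLDLR against 0.00484 to 0.0587.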

How the results depend on the processing

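Peak number limits every value here, as the lists hold no counts. The 2 sites higher in PBS than in EGF became 1 (lower) without adjustment for peak number. They became 1 (higher) with a −log10 q of at least 5, the 20000 highest peaks, sites of 1 library, a 5 kb window, or lane as a term. At an adjusted p of 0.05 the called sites were 4 (3 higher, 1 lower), and with array weights 7 (5 higher, 2 lower). With only CTRL, PBS and EGF libraries they were 0. Without adjustment and with the 20000 highest peaks, the 1 site was neither the JDP2 nor the NUPR1 site. Without 1 library the called sites were 0 (PBS at 48 h B) to 4 (PBS at 48 h C, 3 higher and 1 lower). The 0 sites against CTRL became 7 lower without adjustment, 4 with the 20000 highest peaks (3 higher, 1 lower) and 2 in a 50 kb window (1 higher, 1 lower). They became 1 (higher) with lane and 1 (higher) at 0.05. Without 1 library they were 0 to 3. Without CTRL A they were 2 (1 higher, 1 lower), without B 3 (1 higher, 2 lower) and without D 1 (lower).

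The 1 gene against EGF became 0 without adjustment, with summit windows, basic transcripts, a 5 kb window, nearest sites, only CTRL, PBS and EGF libraries, without libraries under 30000 peaks, with lane, or at 0.01, became 2 with sites of at least 5 libraries, a 50 kb window or array weights, and 3 (higher) with the 20000 highest peaks. Without 1 library it was 0 to 1. The 0 genes against CTRL became 8 lower without adjustment and 3 higher with the 20000 highest peaks, and stayed 0 without any 1 library. The 2 genes by time and ligand became 41 lower without adjustment, 16 with the 20000 highest peaks, 7 with array weights, 6 at a −log10 q of 5, 5 without libraries under 30000 peaks, 1 with basic transcripts or a 50 kb window, and 0 at 5 kb or 0.01, with 2 to 3 without 1 library. With the 20000 highest peaks, IFNG+EGF against EGF was 0 for EPRS1 and -0.227 for STC2, which reversed.

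Heights called against EGF (2) became 4 with median centring, 5 from −log10 p, 7 without libraries under 30000 peaks (71 sites), 5 with near and far medians made equal and 1 at 0.01, and 2 to 7 without 1 library (4 without PBS at 24 h A, 7 without PBS at 48 h C). Against CTRL (6) they became 11 from −log10 p, 16 without libraries under 30000 peaks and 1 at 0.01, and 1 to 16 without 1 library (2, 1 and 3 without CTRL A, C and D, 16 without PBS at 48 h C). At 48 h against EGF (4) they became 2 with median centring, 7 from −log10 p and 1 at 0.01, and 1 to 5 without 1 library (2, 2, 1 and 2 without PBS at 48 h B and EGF at 48 h A, C and D). At 48 h against CTRL (8) they became 17 without libraries under 30000 peaks and 3 at 0.01, and 3 to 17 without 1 library (4, 5, 5, 3 and 17 without CTRL A, B, C and PBS at 48 h B and C). Leaving out libraries under 30000 peaks adds sites, since fewer libraries must share them.

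The deviation of TGATGNAA sites stayed between 5.80 and 9.20 points for PBS minus EGF and between 4.31 and 7.64 for PBS minus CTRL without 1 library. The latter was 7.79 (exact permutation p 0.0143, not adjusted) without libraries under 30000 peaks. Replicate letters paired the samples weakly at most. Correlations of deviations were -0.0324 to 0.109 (median 0.0199) over 33 same-letter pairs. Over 96 other-letter pairs they were -0.0922 to 0.0622 (median -0.00414). With a replicate block, sites called against EGF became 1, genes 0, and heights at 48 h against EGF 2. Except where stated, the causes were not tested.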

Other observations

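Against PBS, OSM gave mostly negative differences in adjusted detection near these genes. The median over the 41 genes was -0.0481 against -0.0198 over all genes. In limma 13 genes (31.7%, against 15.9% of all genes) had an unadjusted p below 0.05, 12 of them lower with OSM, with 0 called. For single sites the shares were close, 14.2% of the sites of the 41 genes against 13.3% of all sites. The PBS libraries are the same as in the comparison of PBS with EGF. PSAT1, the aminotransferase of serine synthesis, was at -0.223 (adjusted p 0.114 in limma), and SHMT2 was at -0.177. At site level, a CEBPG site 2750 bp past a start was higher with OSM by 0.802 (adjusted p 0.0148) and the PPP1R15A promoter site was at -0.550 (adjusted p 0.0192), neither past 0.01. These genes were named after their values were seen.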
